A study of Homo sapiens with 6 samples.

Results

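The genes described here are antisense long noncoding RNAs (lncRNAs) of MM.1S, a human multiple myeloma cell line, and the sense genes they are named after. They were taken from the deposited count table by 3 conditions: the biotype lncRNA, a symbol that ends in -AS and a number, and a mean of at least 1 CPM (the count scaled to a library total of 1000000) over all 6 libraries. The table held 60671 genes, of which 1427 were numbered -AS lncRNAs. Of those, 1163 had at least 1 count and 236 reached 1 CPM. A sense gene was found for 234 of the 236, with 231 distinct sense genes, and in 233 pairs it was protein coding. RPARP-AS1 and TRG-AS1 had none. The members were thus selected on their mean CPM over all libraries, so their levels are given as a description; the difference between the groups was not part of the choice. Just above the threshold lay DDN-AS1 (1.01 CPM), MCPH1-AS1 (1.01 CPM) and DLGAP1-AS1 (1.01 CPM), and just below it USP2-AS1 (0.999 CPM), YEATS2-AS1 (0.989 CPM) and UGDH-AS1 (0.989 CPM).

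RNA was sequenced from 3 libraries of MM.1S wild-type (WT) cells and 3 libraries of MM.1S cells in which CD38, the surface glycoprotein that hydrolyses NAD and is bound by therapeutic myeloma antibodies, had been knocked out by CRISPR/Cas9 (CD38 KO). Cells of both groups carried GFP and a click beetle luciferase (CBR). Before RNA was taken, dead cells were gated out, and CD38+ cells were collected from the WT line and CD38-negative cells from the CD38 KO line. The library names show 1 knockout line, E9, so a difference between the groups belongs to that line against the WT line and cannot be told apart from differences between lines that do not come from CD38. The labels call the 3 libraries of each group biological replicates prepared from the sorted cells, and separate cultures are not named, so the p-values measure the spread between these preparations.

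Antisense lncRNAs are transcribed from the strand opposite to another gene. Some start back to back with a protein-coding gene from a shared, CpG-rich promoter, some run across the exons of the sense gene, and others lie within one of its introns. Individual members are known to bind microRNAs, to recruit chromatin regulators to the sense locus or to pair with the sense transcript, and the nuclear exosome degrades many RNAs of this kind soon after they are made. The symbol records position, not function. These libraries were made with a SMARTer Ultra Low kit that does not keep the strand of the RNA. Reads from exons that a lncRNA and its sense gene share therefore cannot be told apart. Exons overlapped in 154 of the 215 pairs with both genes tested. The share of exonic bases that overlap is given for some of the pairs only.

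Totals ranged from 61515519 to 72335496 counts per library, and 3 counts, the most that a count of 0 allows, stood for 0.0405 to 0.0504 CPM. CPM below are scaled with TMM factors. CD38 checked the labels, with 42.5, 40.4 and 38.7 CPM in WT and 0.798, 1.34 and 0.775 CPM in CD38 KO (log2 fold change -5.39, SE 0.13, edgeR adjusted p = 3.06e-16). Mitochondrially encoded genes took 2.63 to 2.71% of the counts in WT and 6.83 to 7.30% in CD38 KO. All 7 plasma cell markers were present, with a summed level of 6404 to 6410 CPM in WT and 8526 to 8547 CPM in CD38 KO, and the 4 B cell markers summed to at most 0.178 CPM. The 5 T and NK cell markers summed to 1.37 to 1.51 CPM in WT and 5.30 to 5.67 CPM in CD38 KO, where NKG7 was at 0. The 5 stromal and endothelial markers summed to 34.1 to 36.2 CPM in WT, where COL1A2 was at 0, and to 131 to 137 CPM in CD38 KO. The 4 myeloid markers stayed between 0.609 and 1.30 CPM, and the 3 erythroid markers summed to 23.2 to 23.8 CPM in WT and 29.4 to 32.6 CPM in CD38 KO. The part of these shifts in the results below was not tested. In bulk RNA, fewer cells that express a gene and less RNA per cell cannot be told apart.

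Between the WT and CD38 KO libraries, 112 of the 236 antisense lncRNAs changed at an edgeR adjusted p under 0.05, 66 of them higher and 46 lower in CD38 KO. That is 47.5% of the members, beside 44.4% of all 20120 genes tested and 45.3% of the 1017 lncRNA genes at 1 CPM or more. The higher calls took 28.0% of the members against 22.8% of all tested genes and 28.6% of those lncRNAs. The lower calls took 19.5% against 21.6% and 16.7%. A change of at least 2-fold was called for 28 members (11.9%), 15 higher and 13 lower, beside 11.3% of all tested genes, 8.97% of those at 1 CPM or more and 13.0% of lncRNAs at 1 CPM or more. The median log2 fold change was 0.09 over the members, 0.00 over all tested genes and 0.11 over lncRNAs at 1 CPM or more. With library size as the only scaling, 56 members were higher and 59 lower, the members' median was 0.01 and that of all tested genes -0.08, so the balance of directions depended on the scaling.

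The members were low in level. Their mean lay between 1.01 and 61.6 CPM with a median of 3.11 CPM; 38 reached 10 CPM and 4 reached 50 CPM. The spread between libraries was larger in the low members, with a median coefficient of variation in WT of 14.8% under 2 CPM and 4.67% at 10 CPM or more. Calls followed the level: 26 of the 38 members at 10 CPM or more were called (68.4%) and 27 of the 77 under 2 CPM (35.1%), and all tested genes at 1 CPM or more were called in 56.7%. CPM of the groups did not overlap in 138 members (58.5%), beside 52.5% of all tested genes, 63.4% of those at 1 CPM or more and 55.6% of lncRNAs at 1 CPM or more. All 236 passed the filter on low counts, but 31 reached the threshold of 1 CPM only through 1 of the groups, 11 of them called higher, 11 lower and 9 not called. Among the 205 members at 1 CPM or more in both groups, 55 were higher and 35 lower (43.9% called).

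**Figure D1:**
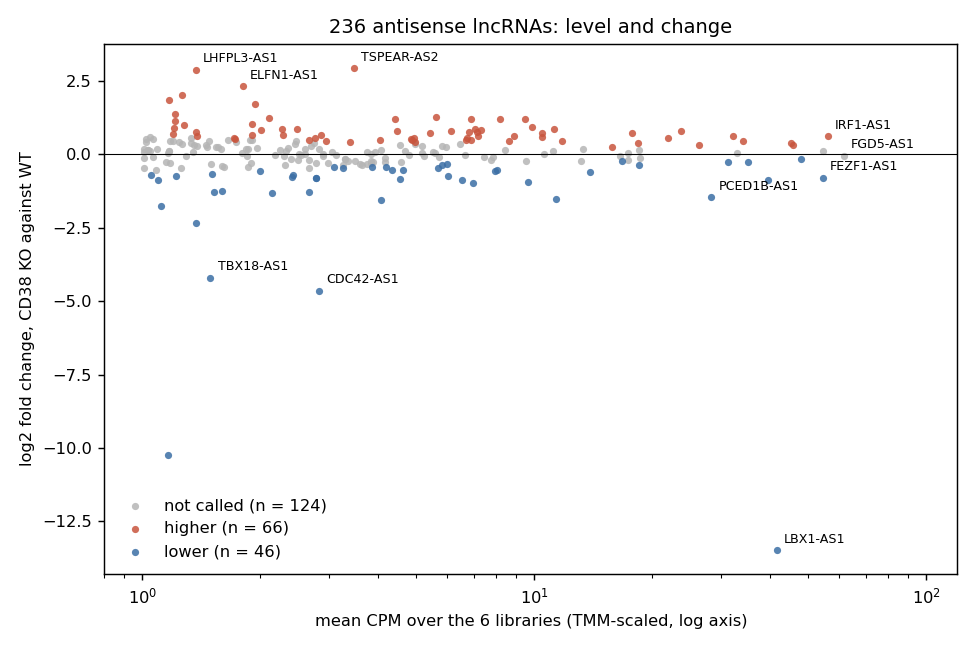
Mean CPM of each of the 236 antisense lncRNAs over the 6 libraries (x axis, log scale, TMM-scaled) against its log2 fold change in CD38 KO against WT (y axis), with 66 members called higher in red, 46 lower in blue and 124 not called in grey. Most called members lie within 2 log2 units of 0; the fitted value of LBX1-AS1, whose CD38 KO libraries held 1 count in all, depends on the prior count of the fit.

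The falls described first were losses of nearly all reads of a lncRNA. Among the falls below, LBX1-AS1, CDC42-AS1, TBX18-AS1, SPINT1-AS1 and CBR3-AS1 lay under 1 CPM in CD38 KO, as did the mean of KDM4A-AS1. These lncRNAs thus reached the threshold through the WT libraries. LBX1-AS1 (ENSG00000227128; chr10:101229594-101270148, + strand in GENCODE 29, GRCh38) is named for LBX1, a homeobox factor of muscle precursors and spinal neurons. It had 6516, 4946 and 5664 counts in WT and 0, 0 and 1 counts in CD38 KO, that is 88.0, 74.7 and 86.2 CPM in WT and 0, 0 and 0.0161 CPM in CD38 KO. In WT it had the highest CPM of all members (not scaled to length), and a single count was left in the 3 CD38 KO libraries, a ratio of 15415 between the groups (95% counting interval 2766 to 608901; edgeR adjusted p = 2.84e-21). LBX1 itself was low in both groups, with 40 counts in WT and 6 in CD38 KO over 3 libraries each, and was not tested. The ratio of its counts in WT to CD38 KO was 6.00 (95% counting interval 2.53 to 17.3), in the same direction as LBX1-AS1. Of the neighbours within 200 kb, BTRC, a ubiquitin ligase subunit, had 25.3, 24.9 and 25.7 CPM in WT and 26.6, 28.0 and 28.8 CPM in CD38 KO and was not called (log2 fold change 0.14), nor was KAZALD1 (0.15). SFXN3 (0.89), PDZD7 (3.07) and the lncRNA AL133215.2 (1.08, edgeR adjusted p = 0.0465) were called higher. None of the other genes tested within 200 kb was called lower.

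CDC42-AS1 (ENSG00000285752; chr1:22028317-22052927, - strand) starts 300 bases from CDC42, a small GTPase of cell polarity and the actin cytoskeleton. The lncRNA had 5.84, 5.39 and 5.10 CPM in WT and 0.235, 0.134 and 0.274 CPM in CD38 KO, a 25.05-fold fall (log2 fold change -4.65, SE 0.24, edgeR adjusted p = 1.05e-12). CDC42 had 74.98, 81.1 and 76.1 CPM in WT and 78.1, 71.4 and 75.3 CPM in CD38 KO, its groups overlapped and it was not called (log2 fold change -0.05, SE 0.05, edgeR adjusted p = 0.5). Per kilobase of exon the lncRNA stood at 2.11 CPM in WT and CDC42 at 21.5 CPM. The lncRNA shared 3.19% of its exonic bases with CDC42 and 47.5% with any gene. The number of CDC42-AS1 counts per 100 CDC42 counts was 7.78, 6.65 and 6.70 in WT and 0.300, 0.188 and 0.365 in CD38 KO (log2 change -4.48, SE 0.27, limma adjusted p = 6.38e-10). Around it, of the genes tested within 200 kb, LINC00339 and CDC42-IT1 were among those not called (log2 fold changes 0.23 and -0.17), HSPG2 was lower (-0.76) and WNT4 higher (1.42).

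TBX18-AS1 lies inside TBX18, a T-box factor gene of the epicardium and sinus node, without shared exonic bases. TBX18 had 0 counts in all 6 libraries. The lncRNA had 3.03, 2.35 and 3.11 CPM in WT and 0.125, 0.269 and 0.0646 CPM in CD38 KO, an 18.5-fold fall (log2 fold change -4.21, SE 0.34, edgeR adjusted p = 1.85e-09). Its groups were far apart, and the CD38 KO libraries lay close to the floor.

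Other falls came with a fall of the sense gene. SPINT1 encodes a Kunitz-type inhibitor of the proteases that activate hepatocyte growth factor. SPINT1-AS1 had 2.18, 2.43 and 2.25 CPM in WT and 0.516, 0.504 and 0.323 CPM in CD38 KO (log2 fold change -2.35, SE 0.26, edgeR adjusted p = 1.54e-07) and SPINT1 64.8, 59.9 and 62.5 CPM in WT and 14.9, 16.6 and 17.7 CPM in CD38 KO (log2 fold change -1.93). CBR3, a carbonyl reductase gene, fell by 2.22 on the log2 scale and CBR3-AS1 by 1.78, the lncRNA from 1.73 ± 0.433 to 0.501 ± 0.0417 CPM (SD, n = 3 each). C2CD4D-AS1 had 5.24, 6.52 and 6.47 CPM in WT and 1.96, 2.29 and 1.94 CPM in CD38 KO (log2 fold change -1.56) beside -1.21 for C2CD4D. In each of these pairs the WT and CD38 KO libraries were apart for both genes.

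PCED1B-AS1, an abundant member, had 42.2, 39.3 and 43.3 CPM in WT and 14.5, 15.6 and 14.9 CPM in CD38 KO, a 2.78-fold fall (log2 fold change -1.47, SE 0.07, edgeR adjusted p = 2.96e-13). PCED1B, which encodes a protein with a PC-esterase domain, had 20.4, 20.4 and 22.2 CPM in WT and 7.30, 8.05 and 7.80 CPM in CD38 KO and a log2 fold change of -1.45. The pair thus fell by nearly the same factor, although their annotated starts lie 136853 bases apart and the lncRNA shares 7.60% of its exonic bases with PCED1B. ATP2B1-AS1 fell by 1.34 on the log2 scale and ATP2B1, the plasma membrane calcium pump, by 0.90, and the ratio between the members of the pair was not called.

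ST3GAL6-AS1, described in myeloma cells together with ST3GAL6, a sialyltransferase of selectin ligands, was a fall without its partner. It had 17.0, 17.3 and 16.2 CPM in WT and 5.44, 6.69 and 5.44 CPM in CD38 KO (log2 fold change -1.52, SE 0.10, edgeR adjusted p = 9.12e-11), so every CD38 KO library lay below every WT library. ST3GAL6 had 75.9, 82.5 and 74.97 CPM in WT and 82.8, 78.2 and 78.7 CPM in CD38 KO with overlapping groups (log2 fold change 0.04, SE 0.05, edgeR adjusted p = 0.57). Counts of the lncRNA per 100 ST3GAL6 counts were 22.4, 20.9 and 21.6 in WT and 6.57, 8.55 and 6.91 in CD38 KO (log2 change -1.56, SE 0.14, limma adjusted p = 1.39e-07). Falls of at least 2-fold were also called for KDM4A-AS1, described with the opposite pairs, BOLA3-AS1 (log2 fold change -1.28) and CEBPB-AS1 (-1.26). BOLA3, of mitochondrial iron-sulfur cluster assembly, and CEBPB, a bZIP transcription factor, were not called (-0.17 and -0.02), and the antisense to sense ratio was lower in both pairs. BOLA3-AS1 and CEBPB-AS1 were named after their values were seen.

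The 7 largest rises began from a mean under 1 CPM in WT, so these lncRNAs reached the threshold through the CD38 KO libraries. TSPEAR-AS2 (ENSG00000182912; chr21:44517216-44525952, + strand) had 0.581, 0.619 and 1.23 CPM in WT and 5.90, 5.26 and 7.23 CPM in CD38 KO, a 7.59-fold rise (log2 fold change 2.92, SE 0.24, edgeR adjusted p = 1.68e-08). Its neighbour on the same strand, TSPEAR-AS1, lay below the 1 CPM threshold and is no member. It had 0.297, 0.0453 and 0.183 CPM in WT and 1.63, 1.31 and 1.68 CPM in CD38 KO (log2 fold change 3.10, edgeR adjusted p = 2.33e-06), so both lncRNAs of the locus rose. TSPEAR, a secreted protein of hair follicles and teeth, held 6 counts in WT and 20 in CD38 KO and was not tested. The ratio of its counts in CD38 KO to WT was 3.70 (95% counting interval 1.43 to 11.3). ELFN1-AS1 (ENSG00000236081; chr7:1738630-1742291, - strand) lies within an intron of ELFN1, a synaptic leucine-rich repeat protein. It had 0.527, 0.694 and 0.594 CPM in WT and 2.91, 2.94 and 3.16 CPM in CD38 KO (log2 fold change 2.31, SE 0.22, edgeR adjusted p = 2.07e-08). ELFN1 rose with it from 10 counts in WT to 57 counts in CD38 KO over 3 libraries each, a log2 fold change of 2.60 (edgeR adjusted p = 0.00205). The 250 bases before the RefSeq starts of these lncRNAs are shown because they lie upstream of 2 of the 3 members with the largest rises; they were taken from the RefSeq promoter table (GRCh38.p14) and run 5′ to 3′ on the strand of the lncRNA, at chr21:44516965-44517214 (+ strand) and chr7:1742311-1742560 (- strand). Capitals mark matches, on either strand, to the motifs listed with the promoter counts below.
TSPEAR-AS2: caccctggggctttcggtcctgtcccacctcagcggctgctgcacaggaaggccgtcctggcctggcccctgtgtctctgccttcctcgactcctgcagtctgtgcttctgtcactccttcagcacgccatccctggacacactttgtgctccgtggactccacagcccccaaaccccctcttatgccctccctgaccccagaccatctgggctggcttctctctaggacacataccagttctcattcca
ELFN1-AS1: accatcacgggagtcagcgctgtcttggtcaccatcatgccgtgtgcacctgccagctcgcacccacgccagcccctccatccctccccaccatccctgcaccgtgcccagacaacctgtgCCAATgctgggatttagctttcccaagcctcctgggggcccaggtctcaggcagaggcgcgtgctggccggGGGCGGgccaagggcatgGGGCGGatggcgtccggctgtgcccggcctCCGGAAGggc
The window of TSPEAR-AS2 held none of the 5 motifs and 6 CpG dinucleotides in 250 bases, and that of ELFN1-AS1 held 1 ETS, 1 NFY and 2 SP matches and 15 CpG dinucleotides.

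LHFPL3-AS1 lies in an intron of LHFPL3, a gene of the tetraspan family, and LHFPL3-AS2 starts beyond the end of LHFPL3 and overlaps its span without shared exonic bases. LHFPL3 had 0 counts in WT and 9 in CD38 KO. LHFPL3-AS1 had 0.270, 0.332 and 0.381 CPM in WT and 2.28, 2.47 and 2.47 CPM in CD38 KO (log2 fold change 2.88, SE 0.26, edgeR adjusted p = 8.78e-09). LHFPL3-AS2 had 0.365, 0.770 and 0.411 CPM in WT and 1.81, 1.56 and 2.10 CPM in CD38 KO (log2 fold change 1.83). Both lncRNAs were thus higher in every CD38 KO library than in any WT library, and since they share a sense gene they are not independent examples.

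Rises together with a sense gene included TBX2-AS1 and CNIH3-AS2. TBX2-AS1 had 0.378, 0.438 and 0.700 CPM in WT and 2.19, 2.27 and 1.61 CPM in CD38 KO (log2 fold change 2.004) and TBX2, a T-box repressor, 1.04, 1.06 and 1.14 CPM in WT and 2.80, 1.80 and 2.26 CPM in CD38 KO (1.08). The lncRNA rose more than TBX2 in the ratio test (log2 change 0.93, SE 0.30, limma adjusted p = 0.0298), a call lost in 4 alternatives, with an adjusted p of up to 0.165 without CD38 KO replicate 2. CNIH3-AS2 rose from 0.909 ± 0.134 to 2.97 ± 0.167 CPM (SD, n = 3 each) and CNIH3, an auxiliary subunit of AMPA receptors, from 6.33 ± 0.638 to 14.3 ± 1.57 CPM. LAMP5-AS1 had 1.30, 1.09 and 1.39 CPM in WT and 3.24, 2.81 and 2.81 CPM in CD38 KO (log2 fold change 1.23), beside 461, 448 and 472 CPM in WT and 688, 741 and 703 CPM in CD38 KO for LAMP5 (0.63), a lysosome-associated membrane protein of plasmacytoid dendritic cells and neurons. H1-10-AS1 (1.20), C1RL-AS1 (1.19), ZNF710-AS1 (1.19) and KAZN-AS1 (1.03) rose with a linker histone gene (0.97), a complement protease-like gene (1.34), a zinc finger gene (1.33) and the kazrin gene (0.37); these 4 were named after their values were seen.

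Rises without a call of the sense gene were seen in ZNF674-AS1, DICER1-AS1 and ADAMTSL4-AS1. ZNF674-AS1, which starts 36 bases from ZNF674, a KRAB zinc finger gene, had 3.54, 2.75 and 3.55 CPM in WT and 8.68, 7.33 and 7.75 CPM in CD38 KO (log2 fold change 1.27, SE 0.14, edgeR adjusted p = 1.44e-07). ZNF674 had 2.86, 3.64 and 2.95 CPM in WT and 4.004, 2.23 and 2.26 CPM in CD38 KO (log2 fold change -0.15) with overlapping groups. DICER1-AS1 had 2.53, 2.32 and 3.18 CPM in WT and 5.93, 6.12 and 6.43 CPM in CD38 KO (log2 fold change 1.20). DICER1, the ribonuclease that cuts microRNA precursors, had 42.8, 34.6 and 43.2 CPM in WT and 41.8, 37.2 and 37.4 CPM in CD38 KO (-0.05). The antisense to sense ratio was higher in CD38 KO in both pairs (log2 changes 1.47 and 1.25, limma adjusted p = 3.39e-05 and 2.24e-05). ADAMTSL4-AS1 rose by 1.36 on the log2 scale, whereas ADAMTSL4, of fibrillin microfibrils, had a log2 fold change of 0.93 that missed the threshold (edgeR adjusted p = 0.0583). SBNO1-AS1 (1.14), named after its values were seen, rose beside SBNO1 at -0.02, not called.

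**Figure D2:**
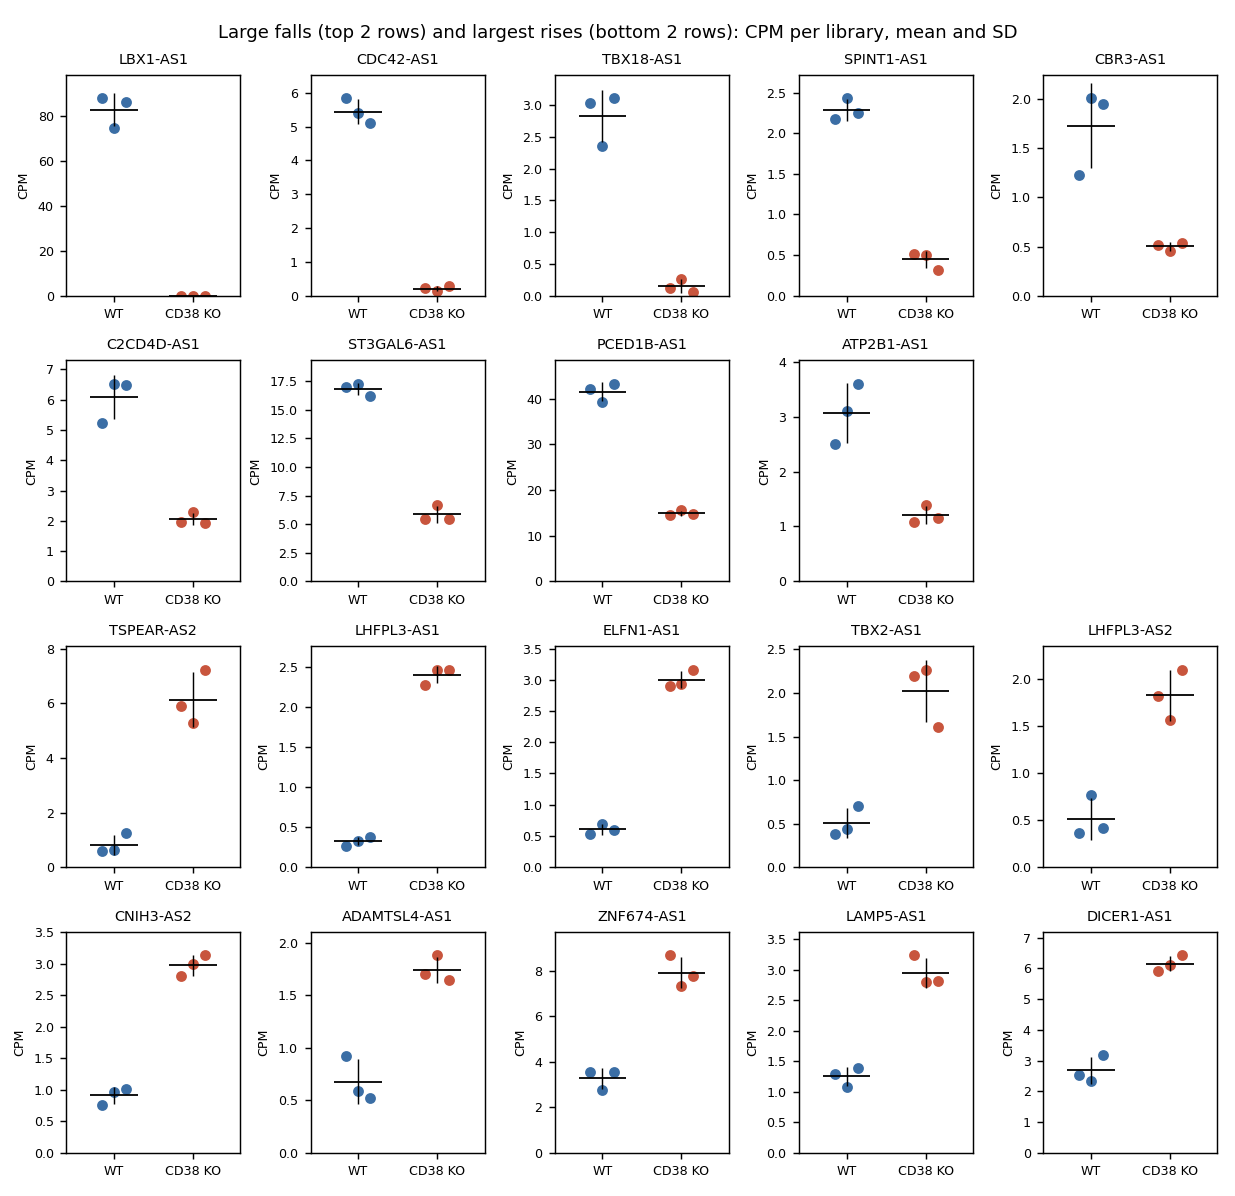
CPM (TMM-scaled, linear y axis from 0) of 9 antisense lncRNAs among the 10 with the largest falls (top rows) and the 10 with the largest rises (bottom rows) in each of the 3 WT libraries (blue) and 3 CD38 KO libraries (red), with the mean as a horizontal bar and the SD as a vertical one. In all 19 the groups do not overlap, which the choice of these members required; LBX1-AS1 goes from 83.0 CPM in WT to a single count in CD38 KO.

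None of the 6 members with the highest mean CPM changed by 2-fold. FGD5-AS1, the most abundant by mean CPM and described as a sponge of microRNAs in tumour cells, had 62.0, 63.7 and 62.4 CPM in WT and 59.8, 58.7 and 63.0 CPM in CD38 KO and was not called (log2 fold change -0.05, SE 0.05, edgeR adjusted p = 0.441). FGD5, an endothelial exchange factor, held 4 counts in WT and 2 in CD38 KO. MRPL20-AS1 had 58.2, 47.9 and 51.7 CPM in WT and 55.6, 58.1 and 55.6 CPM in CD38 KO and was not called (log2 fold change 0.10). OIP5-AS1, the human counterpart of the zebrafish RNA cyrano, had 51.2, 48.4 and 52.5 CPM in WT and 49.5, 41.0 and 44.4 CPM in CD38 KO (log2 fold change -0.17, SE 0.06, edgeR adjusted p = 0.0354). Its groups overlapped, and the call was lost without WT replicate 1 or 3 or CD38 KO replicate 2 or 3, with adjusted p up to 0.186.

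Of these 6, IRF1-AS1 rose most. It had 43.3, 47.0 and 42.6 CPM in WT and 67.0, 66.4 and 69.7 CPM in CD38 KO (log2 fold change 0.61, SE 0.05, edgeR adjusted p = 6.8e-09) and IRF1, the interferon-induced transcription factor, 122, 126 and 120.4 CPM in WT and 202, 186 and 188 CPM in CD38 KO (log2 fold change 0.65, SE 0.04, edgeR adjusted p = 8.65e-11). The antisense to sense ratio was not called, and lncRNA counts per 100 IRF1 counts were 35.6, 37.4 and 35.3 in WT and 33.2, 35.6 and 37.1 in CD38 KO. FEZF1-AS1 fell most among the 6. It had 66.0, 70.3 and 71.0 CPM in WT and 38.2, 39.2 and 41.3 CPM in CD38 KO (log2 fold change -0.80, SE 0.05, edgeR adjusted p = 1.01e-10), and FEZF1, a zinc finger repressor of forebrain development, had 15.4, 15.7 and 19.1 CPM in WT and 10.7, 9.91 and 10.7 CPM in CD38 KO (log2 fold change -0.68). TRG-AS1, at the T cell receptor gamma locus, rose from 40.8 ± 1.87 to 50.3 ± 2.16 CPM (SD, n = 3 each; log2 fold change 0.30, SE 0.06, edgeR adjusted p = 0.000194).

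**Figure D3:**
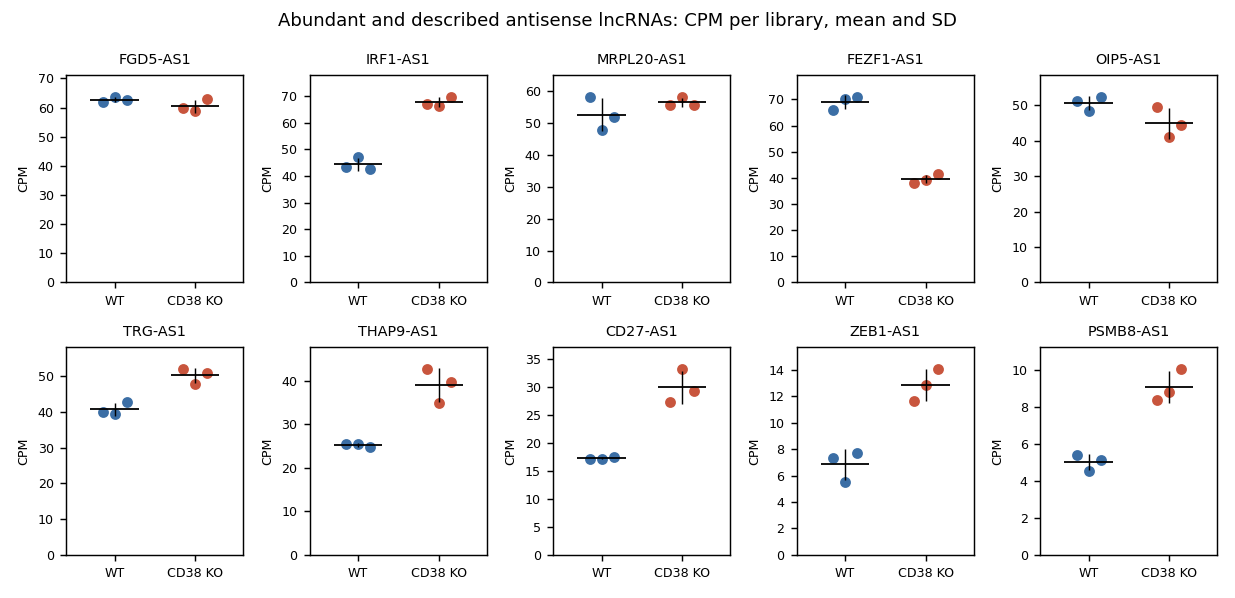
CPM (TMM-scaled, linear y axis from 0) of 6 abundant and 4 described antisense lncRNAs in each of the 3 WT libraries (blue) and 3 CD38 KO libraries (red), with the mean as a horizontal bar and the SD as a vertical one. FGD5-AS1, MRPL20-AS1 and OIP5-AS1 overlap between the groups, FEZF1-AS1 is lower in CD38 KO and the other 6 are higher.

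A list of 22 antisense RNAs described in the cancer literature held 20 that were tested, 7 of them higher and 4 lower (55.0% called; median log2 fold change 0.03, beside 44.4% and 0.00 over all tested genes). Among lncRNAs at 1 CPM or more, 45.3% were called, and among all tested genes at that level 56.7%. THAP9-AS1 had 25.6, 25.4 and 24.7 CPM in WT and 42.7, 34.8 and 39.7 CPM in CD38 KO (log2 fold change 0.63) and rose with THAP9, a gene derived from a DNA transposase (0.65). CD27-AS1 had 17.2, 17.2 and 17.5 CPM in WT and 27.4, 33.2 and 29.3 CPM in CD38 KO (0.79), while CD27, the TNF receptor family member of plasma and memory B cells, was near the floor with 11 counts in WT and 28 in CD38 KO. The ratio of the CD27 counts in CD38 KO to WT was 2.83 (95% counting interval 1.36 to 6.29). ZEB1-AS1 had 7.35, 5.49 and 7.70 CPM in WT and 11.6, 12.9 and 14.05 CPM in CD38 KO (0.91), and ZEB1, a repressor of epithelial genes, was not called (-0.13), with a higher ratio in CD38 KO (log2 change 1.05, SE 0.15, limma adjusted p = 4.57e-05). The WT and CD38 KO libraries were apart for all 3 lncRNAs.

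PSMB8-AS1 rose by 0.85 on the log2 scale (SE 0.12), from 5.04 ± 0.442 to 9.09 ± 0.865 CPM (SD, n = 3 each). PSMB8, an immunoproteasome subunit, rose by 0.53, and 56.8% of the lncRNA's exonic bases are shared with another gene. MAPKAPK5-AS1 and MAPKAPK5, a stress-activated kinase gene, rose by 0.36 and 0.33 on the same scale. FOXD2-AS1 rose by 0.54 (edgeR adjusted p = 0.0439), a call lost in 9 of the alternatives with an adjusted p of up to 0.180 without WT replicate 2. TP73-AS1, to which the table gives another biotype, is 1 of the 4 lower but no member, and CDKN2B-AS1, ZEB2-AS1 and ITGB2-AS1 lay below 1 CPM.

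NNT-AS1, PSMA3-AS1, GABPB1-AS1, TMPO-AS1 and SBF2-AS1 were not called, with log2 fold changes between -0.20 (TMPO-AS1) and 0.14 (PSMA3-AS1). PRKCQ-AS1 had 1.9995, 2.23 and 2.27 CPM in WT and 3.32, 2.45 and 2.44 CPM in CD38 KO and was not called (log2 fold change 0.34, SE 0.19), with groups that did not overlap. It starts 118 bases from PRKCQ, a protein kinase C of T cell signalling, which had 0.378, 0.574 and 0.655 CPM in WT and 2.80, 3.13 and 2.91 CPM in CD38 KO (log2 fold change 2.46, SE 0.24, edgeR adjusted p = 2.94e-08). The number of lncRNA counts per 100 PRKCQ counts was 529, 389 and 347 in WT and 118, 78.5 and 83.9 in CD38 KO (log2 change -2.11, SE 0.22, limma adjusted p = 9.42e-07). The summed T and NK cell markers stood at 1.37 to 1.51 CPM in WT and 5.30 to 5.67 CPM in CD38 KO, where NKG7 was at 0. The sum does not show which of the markers rose, and their part in the rise of PRKCQ was not tested. TTN-AS1 had 1.46, 1.71 and 1.86 CPM in WT and 1.41, 1.26 and 1.28 CPM in CD38 KO, not called, beside a fall of TTN, the giant protein of the sarcomere (-1.65), and the ratio was higher (1.32). TTN-AS1 shares 55.1% of its exonic bases with TTN, so without strand its reads cannot be told apart from those of TTN there.

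Of the 234 pairs, 215 had a sense gene that was tested, and 122 of those sense genes were called (71 higher, 51 lower). That is 56.7%, beside 44.4% of all tested genes and 56.7% of those at 1 CPM or more. The threshold of 1 CPM was not applied to the sense genes, and some, such as ELFN1, lay below it. Both genes were called in 60 pairs. In 43 of the 60 (71.7%) they moved in the same direction, 25 higher and 18 lower, and in 17 in opposite directions, 9 with the lncRNA higher and 8 with it lower. A further 50 pairs had only the lncRNA called, 62 only the sense gene, and 53 neither. The 50 include 7 higher and 3 lower lncRNAs whose sense gene was not tested. Over the 215 pairs the log2 fold changes of lncRNA and sense gene correlated with Pearson's r of 0.46 and Spearman's coefficient of 0.38, as a description: the points come from the same 6 libraries and the genes of a pair share a locus and in many pairs exonic reads.

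**Figure D4:**
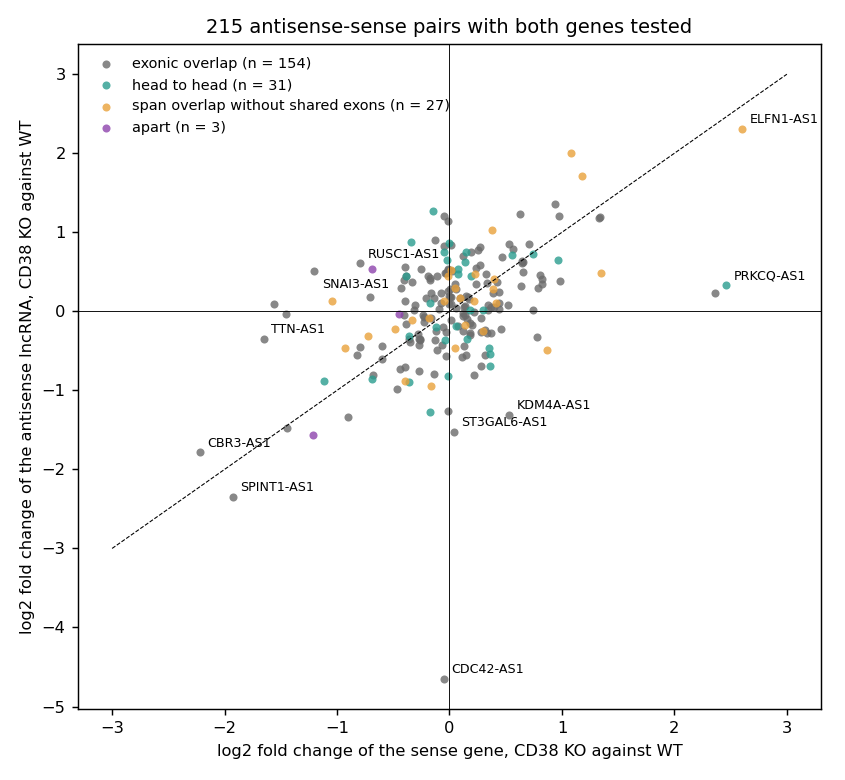
Log2 fold change in CD38 KO against WT of the sense gene (x axis) and of the antisense lncRNA (y axis) for the 215 pairs with both genes tested, coloured by annotated arrangement; the dashed line marks equal change. ELFN1-AS1, SPINT1-AS1 and CBR3-AS1 lie near the line, CDC42-AS1 and ST3GAL6-AS1 lie below it with a sense change near 0, and PRKCQ-AS1 lies far to the right of it.

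Arrangement came from GENCODE 29 (GRCh38). Exons of the lncRNA and sense gene overlapped on opposite strands in 154 of the 215 pairs, 31 started head to head within 1000 bases without shared exonic bases, 27 overlapped the span of the sense gene without shared exonic bases and 3 stood apart. Of the 27 lncRNAs, 11 lay within 1 intron of the sense gene, 3 lay inside it but ran across a sense exon and 13 reached beyond it. The lncRNA was called in 44.8% of pairs with exonic overlap, 64.5% of head to head pairs and 33.3% of those with overlapping spans only, beside 45.3% of lncRNAs at 1 CPM or more. Same and opposite directions numbered 29 and 12 with exonic overlap, 8 and 4 head to head and 5 and 1 with overlapping spans only (4 and 0 within 1 intron). The r of the log2 fold changes was 0.41 with exonic overlap, 0.29 head to head and 0.73 with overlapping spans only (Spearman's coefficient 0.37, 0.22 and 0.57). In the 126 pairs in which under 10% of the lncRNA's exonic bases were shared with any gene, 21 pairs moved the same way and 11 the opposite way, with an r of 0.53. In the 9 pairs with at least 50% shared, 3 moved the same way and none the opposite way. Per kilobase of exon, the median level was 1.28 CPM for the lncRNAs and 4.97 CPM for their sense genes. The lncRNA stood at a median of 29.6% of its sense gene, with quartiles of 6.12 and 139%, and above it in 65 of the 215 pairs.

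Whether a lncRNA changed differently from its sense gene was tested on the ratio of their CPM in each library, over all 483 -AS pairs of the table with both genes tested. The ratio was called in 70 of the members' 215 pairs (32.6%), 39 higher and 31 lower in CD38 KO, beside 22.8% of all 483 (12.2% higher, 10.6% lower). The 483 include these 215, and in the remaining pairs the lncRNA lay below 1 CPM. Since calls followed the level, the shares do not compare pairs of like level. The lncRNA itself was called higher in 29 of the 39 pairs with a higher ratio, and lower in 20 of the 31 with a lower one. All 17 pairs called in opposite directions had a called ratio, as had 9 of the 43 that moved together. The ratio is built from the same genes and libraries, so a called ratio was nearly given for the 17 and is no separate support. Without WT replicate 3, 25 ratios were higher and 21 lower, and an edgeR model with an interaction term called 26 and 20. The number of opposite pairs was 11 without WT replicate 1 and 8 without WT replicate 3.

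KDM4A-AS1 was the opposite pair with the largest change in ratio, and it reached the threshold of 1 CPM through the WT libraries. It had 2.23, 2.46 and 1.83 CPM in WT and 0.704, 1.14 and 0.791 CPM in CD38 KO (log2 fold change -1.31, SE 0.24, edgeR adjusted p = 0.000138), and KDM4A, a histone lysine demethylase, 22.6, 21.5 and 23.4 CPM in WT and 33.3, 33.7 and 30.6 CPM in CD38 KO (log2 fold change 0.53, SE 0.07, edgeR adjusted p = 1.71e-06). Counts of KDM4A-AS1 per 100 KDM4A counts were 9.86, 11.4 and 7.80 in WT and 2.11, 3.39 and 2.58 in CD38 KO (log2 change -1.82, SE 0.25, limma adjusted p = 3.05e-05). NDUFV2-AS1, which overlaps the span but no exon of the gene of a respiratory complex I subunit, fell from 6.63 ± 0.594 to 4.72 ± 0.691 CPM, whereas NDUFV2 rose from 5.01 ± 0.842 to 9.11 ± 0.730 CPM (SD, n = 3 each). The ratio turned over: lncRNA counts per 100 NDUFV2 counts were 142, 123 and 136 in WT and 54.2, 47.5 and 53.0 in CD38 KO (log2 change -1.36, SE 0.15, limma adjusted p = 2.4e-06). ZBTB11-AS1 fell by 0.81 on the log2 scale and ZBTB11, a zinc finger regulator, rose by 0.22. ZRANB2-AS2 had 1.89, 1.72 and 1.98 CPM in WT and 1.19, 0.823 and 1.45 CPM in CD38 KO (log2 fold change -0.69), a call lost in 3 of the fits without a library with adjusted p of up to 0.103. ZRANB2, a splicing regulator whose start lies 27 bases away, rose by 0.36.

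In the other direction, SNAI3-AS1 had 3.88, 4.39 and 3.75 CPM in WT and 5.63, 5.21 and 6.22 CPM in CD38 KO (log2 fold change 0.51, SE 0.14, edgeR adjusted p = 0.00447) and SNAI3, of the Snail family of repressors, 14.3, 12.7 and 14.4 CPM in WT and 5.62, 6.08 and 6.35 CPM in CD38 KO (log2 fold change -1.20, SE 0.10, edgeR adjusted p = 4.01e-09). SNAI3-AS1 counts per 100 SNAI3 counts were 27.0, 34.7 and 25.9 in WT and 100.3, 85.6 and 98.0 in CD38 KO (log2 change 1.70, SE 0.17, limma adjusted p = 5.41e-07), so in CD38 KO the lncRNA drew about as many reads as SNAI3. RUSC1-AS1 had 5.38, 6.23 and 5.41 CPM in WT and 9.90, 7.09 and 8.99 CPM in CD38 KO (log2 fold change 0.61) and RUSC1, an adaptor of vesicle transport, 29.3, 28.0 and 27.3 CPM in WT and 17.2, 16.6 and 15.1 CPM in CD38 KO (-0.79). TOLLIP-AS1 rose by 0.88 from 0.844 ± 0.191 CPM (SD, n = 3) and TOLLIP, an adaptor of Toll-like receptor signalling, fell by 0.34. TOLLIP-AS1 thus reached the threshold of 1 CPM through the CD38 KO libraries. The call of TOLLIP-AS1 was lost without WT replicate 3 or CD38 KO replicate 2, with adjusted p of up to 0.064. MCM3AP-AS1 rose by 0.56 and MCM3AP, of mRNA export, fell by 0.40 (log2 change 0.96, SE 0.18, limma adjusted p = 0.000716). The groups of both genes were apart in all 4 pairs.

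**Figure D5:**
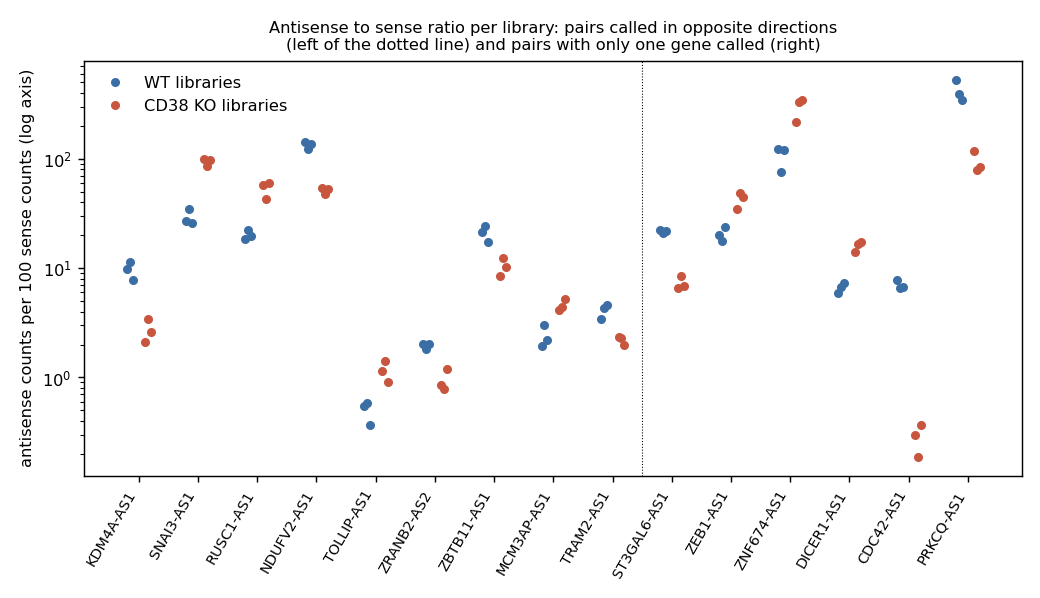
Antisense counts per 100 sense counts (y axis, log scale) in each WT library (blue) and CD38 KO library (red), for 9 pairs called in opposite directions (left of the dotted line) and 6 pairs with 1 gene called (right). In every pair shown the libraries of the groups are apart; the SNAI3-AS1 ratio is higher and the KDM4A-AS1, CDC42-AS1 and PRKCQ-AS1 ratios are lower in CD38 KO.

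In 3 cases a sense gene had a pair of members. PAXIP1-AS1 rose (log2 fold change 0.44) beside a fall of PAXIP1 (-0.39), and PAXIP1-AS2 was not called (-0.16). CELF2-AS1 (0.30) and CELF2-AS2 (-0.47) were not called. The third was LHFPL3, described above. TPT1-AS1, on chromosome 13, had 6.93, 7.82 and 6.17 CPM in WT and 10.2, 10.7 and 11.4 CPM in CD38 KO (log2 fold change 0.63) and TPT1, a translationally controlled protein, 0.65; all tested genes of chromosome 13 had a median log2 fold change of 0.39 and 45.7% were called higher. These members were named after their values were seen. By chromosome, 7 of the 12 members on chromosome 7 were higher and 2 lower, with a median log2 fold change of 0.37, beside a median of -0.03 and 20.3% called higher and 23.4% lower among all tested genes there. Chromosome 7 was picked from all chromosomes after the values were seen. Its higher members include LHFPL3-AS1 and LHFPL3-AS2, which are not independent. KMT2E-AS1, another higher member, starts near chr7:105014142, in the same stretch as LHFPL3-AS2 (chr7:104894628-104926645). KMT2E-AS1 was named after its values were seen. Chromosome 1 had the most members, 30, with 12 higher and 7 lower (median log2 fold change 0.03), beside 20.2% higher, 25.8% lower and a median of -0.06 among all tested genes there.

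Promoter windows, 250 bases before to 50 bases after a start, were taken from the RefSeq table (GRCh38.p14) for 179 members, in 217 windows. Their median GC content was 64.3% and their median ratio of observed to expected CpG 0.794, against 58.7% and 0.579 over all 35116 windows. An SP motif (GGGCGG) was found on either strand in 59.0% of the members' windows and 45.0% of all windows, an ETS motif (CCGGAAG) in 15.7 and 10.3%, an NFY motif (CCAAT) in 30.4 and 34.6%, the palindromic 10-base NRF1 consensus in 1.84 and 1.24% and a TATA box (TATAAA) in 5.99 and 11.5%. The 319 windows of the sense genes lay near the members' windows in GC content and CpG ratio (medians 63.7% and 0.792). In them the SP motif was found in 59.2%, ETS in 13.8%, NFY in 34.8%, NRF1 in 0.940% and the TATA box in 10.0%. Overlapping matches were all counted, and a match is only these letters. Both genes had windows in 160 pairs, and 41 of these had divergent starts at most 250 bases apart. In those 41 pairs the lncRNA was called in 21 (51.2%), beside 45.3% of lncRNAs at 1 CPM or more. The sense gene was called in 22 (53.7%), beside 44.4% of all tested genes and 56.7% of those at 1 CPM or more. Of the 41 pairs, 9 moved the same way and 3 the opposite way.

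In 9 of the 41 no exon annotated in GENCODE 29 lay between the RefSeq starts, and the lncRNA was called in 4 of these. The sequences between the starts of these 4 pairs are shown, since a single short stretch lies upstream of both a changed lncRNA and its sense gene, and the pairs differ in whether the genes moved together. They are written 5′ to 3′ on the strand of the lncRNA, at chr12:89708839-89708954 (+ strand), chr5:181261144-181261211 (+ strand), chr1:155323846-155323936 (- strand) and chr6:52577061-52577201 (+ strand) in GRCh38.p14, with capitals for motif matches.
ATP2B1-AS1 and ATP2B1: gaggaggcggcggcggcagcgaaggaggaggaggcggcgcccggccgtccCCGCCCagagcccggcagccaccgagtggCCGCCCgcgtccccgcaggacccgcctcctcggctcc
TRIM52-AS1 and TRIM52: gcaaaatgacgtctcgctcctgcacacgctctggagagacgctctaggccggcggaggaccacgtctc
RUSC1-AS1 and RUSC1: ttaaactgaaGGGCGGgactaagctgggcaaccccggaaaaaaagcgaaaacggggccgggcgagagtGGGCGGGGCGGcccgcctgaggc
TRAM2-AS1 and TRAM2: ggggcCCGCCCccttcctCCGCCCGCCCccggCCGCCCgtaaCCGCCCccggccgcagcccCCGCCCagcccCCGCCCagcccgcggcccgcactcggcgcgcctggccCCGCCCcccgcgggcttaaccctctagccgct
ATP2B1-AS1 and ATP2B1 both fell, with 116 bases and 2 SP matches between their starts, and the lncRNA had 2.50, 3.11 and 3.59 CPM in WT and 1.08, 1.39 and 1.16 CPM in CD38 KO. TRIM52-AS1 and TRIM52, a RING finger gene, both rose (log2 fold changes 0.71 and 0.56) across 68 bases with none of the 5 motifs. RUSC1-AS1 rose and RUSC1 fell across 91 bases with 3 SP matches. TRAM2-AS1 had 4.62, 5.54 and 6.27 CPM in WT and 4.11, 3.93 and 3.23 CPM in CD38 KO (-0.54) and TRAM2, of the translocon, rose by 0.36 across 141 bases with 8 SP matches; with WT replicate 3 left out, TRAM2-AS1 was no longer called (edgeR adjusted p = 0.0559). The RefSeq starts differ from those of GENCODE 29, in which ATP2B1-AS1 and RUSC1-AS1 also share exonic bases with their sense genes (2.26 and 11.3%). TRIM52-AS1 and TRAM2-AS1 were named after their values were seen.

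Genes that act on RNAs of this kind were described from lists. Of 31 exosome, cofactor and termination genes, all tested, 8 were higher and 8 lower (51.6%; median log2 fold change 0.01), beside 44.4% and 0.00 over all tested genes. All 31 had a mean above 1 CPM, and among all tested genes at 1 CPM or more 56.7% were called. EXOSC8, a core exosome subunit, had 47.4, 48.2 and 50.7 CPM in WT and 71.0, 73.6 and 75.8 CPM in CD38 KO (log2 fold change 0.59, SE 0.05, edgeR adjusted p = 5.63e-09), and it lies on chromosome 13. MTREX, the helicase that feeds RNA to the exosome, and NCBP2, of the cap-binding complex, fell by 0.25 each. Of 15 tested genes that bind or sense double-stranded RNA, 2 were higher and 5 lower. That is 46.7% with a median of -0.05, beside 44.4% and 0.00 over all tested genes. IFIH1, the sensor MDA5, had 109, 114 and 111 CPM in WT and 65.3, 66.1 and 64.0 CPM in CD38 KO (log2 fold change -0.77), DHX9, a helicase of double-stranded RNA, 174, 147 and 162 CPM in WT and 113, 107 and 103 CPM in CD38 KO (-0.58) and TLR3, the endosomal receptor, 0.905, 1.31 and 1.11 CPM in WT and 0.156, 0 and 0.0484 CPM in CD38 KO (-3.95). The libraries of the groups were apart for each of these. Among lncRNAs named for other positions at 1 CPM or more, 9 of 39 divergent transcripts (-DT) were higher and 7 lower. That is 41.0% called, beside 45.3% of all lncRNAs at 1 CPM or more. Of the intronic transcripts (-IT) 1 of 5 was higher, and neither of 2 overlapping transcripts (-OT) was called.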

How the data were processed

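The authors deposited 1 table of unnormalized read counts for each gene and library, which was the starting point. Identifiers repeated on 200 of 60871 lines carried the same counts and were kept once. Per the submitters' processing notes, STAR 2.7.9a, Partek and DESeq2 were used, with no step named. What build, annotation, counter or strand setting served is not given in the sources used here. Symbols and biotypes are the table's; positions and exons come from GENCODE 29 (GRCh38) by Ensembl identifier, which may differ from the annotation used for counting. The sense gene is the one whose symbol stands before -AS (1 matched through a RefSeq synonym).

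The groups were compared with edgeR 4.0.16 in R 4.3.3 (quasi-likelihood, TMM, filterByExpr, robust, no covariate) over all 20120 tested genes, with Benjamini-Hochberg adjustment and calls at an adjusted p under 0.05. SE is the log2 fold change divided by the square root of F. The log2 ratio of antisense to sense CPM (prior count 2) was tested with limma 3.58.1 (trend, robust) over 483 pairs. Depth was 61515519 to 72335496 counts per library; floors of 3 counts and 95% intervals cover counting error only. No 2 libraries matched within sampling noise. The procedures were tested on simulated data.

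Alternatives were other scalings and filters, DESeq2 1.42.0, limma-voom, an interaction model, a replicate block, other prior counts and thresholds, and each library left out. Named members are the 10 largest called rises and falls without overlap, the 6 most abundant, 8 opposite pairs, members of the list of described RNAs and, of each protein list, the 3 genes with the smallest adjusted p; some named by this rule are not reported here. Others are said to be named after their values were seen. The members and lists were chosen with earlier results of these data known.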

Additional observations from a re-analysis of the deposited data

How the results depend on the processing

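Members called higher and lower numbered 59 to 68 and 45 to 48 with RLE or upper-quartile scaling, no filter, a 1 CPM filter, DESeq2 or limma-voom, and 56 and 59 with library size alone. No member called in both fits changed direction in any setting. Leaving out 1 library gave 50 to 64 higher and 37 to 47 lower, with the fewest without WT replicate 3, where 87 of the 112 calls were shared. Opposite pairs then numbered 8 to 16, higher ratios 25 to 35 and lower ratios 21 to 32; the edgeR interaction model called 26 and 20. A threshold of 2 CPM lowered the members' median log2 fold change to 0.018, and library size alone to 0.010. NNT-AS1, not called, turned to -0.0347 with library size alone. SBF2-AS1, at 0.01 and not called, turned to -0.00565 with upper-quartile factors, -0.0725 with library size alone and -0.00608 with no filter, and ranged from -0.145 to 0.126 with 1 library left out (-0.0464 without WT replicate 1, -0.0375 without WT replicate 3, -0.145 without CD38 KO replicate 3). The cause of these shifts was not tested.

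Same-numbered WT and CD38 KO libraries share only a number: their deviations from the group means correlated at -0.021 to 0.034, and differently numbered ones at -0.024 to 0.035. With the replicate block, 63 members were higher and 44 lower, 41 pairs moved together and 16 in opposite directions, and 38 ratios were higher and 31 lower; all 107 calls were among the 112. Low counts limit the members under 2 CPM, and shared exons without strand limit the pairs.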
